A study of Mus musculus with 15 samples.

Results

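Whole-blood RNA was examined at 448 loci that carry the biotype antisense in the deposited gene table. They were selected on their counts, as all antisense entries with at least 10 counts in at least 7 of the 15 libraries with Snhg14 left out, and were 448 of 2959 antisense entries and of 55536 genes in all. The 15 mice were 10-month-old C57Bl/6 males. In 8 of them the dam had drunk tributyltin (TBT), an organotin that activates nuclear receptors such as RXR, up to weaning, at a daily dose of 0.5 mg/kg (3.07 µM), and 7 were vehicle controls. Each library came from 1 animal. Exposure was maternal, and the blood was taken from adult offspring. Dam and litter did not enter any test, so the animals were treated as independent, though some may share a dam. A liver tumor is noted for vehicle 3 alone. The comparison asked whether RNA read at these loci differed between the exposure groups, alone and relative to the gene on the opposite strand.

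An antisense transcript is made from the DNA strand opposite to that of a gene. Some are long nuclear RNAs that silence neighbouring genes in cis, such as Kcnq1ot1 and Airn, which are transcribed from the paternal chromosome of imprinted regions. Others start at a shared, divergent promoter, or lie within an intron of the gene they oppose and often have no known function. Their RNA is often scarce, nuclear and quickly degraded by the exosome.

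The position of each locus was taken from the GENCODE M21 annotation of the mouse genome GRCm38 (mm10), in which all 55536 identifiers were found. An opposite-strand gene overlapped 433 of the 448 loci, and 430 of these partners were protein-coding. The 433 loci shared 411 distinct partners. In 248 pairs the antisense locus lay inside the body of the sense gene, in 84 pairs the genes overlapped head to head, in 84 tail to tail, and in 17 the sense gene lay inside the antisense locus. Exons of both strands overlapped in 263 pairs. Counted by those exon bases that belonged to no other gene, 267 loci lay wholly in introns of opposite genes, 28 wholly outside opposite genes, and 138 in both. The other 15 had no annotated partner. Chromosome X held 4 of the loci and chromosome Y held 0.

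Promoter windows from RefSeq (GRCm38.p6), which run from 250 bases before to 50 bases after the transcription start, were found for 185 of the 448 loci. The windows below are examples and do not cover every position, since none is of a locus wholly outside opposite genes. Shown are Kcnq1ot1, the imprinted transcript inside Kcnq1 (chr7:143296498-143296797, minus strand), Gm15987 in an intron of Clec2g (chr6:128974980-128975279, minus strand), 0610039K10Rik head to head with Serinc3 (chr2:163644600-163644899, plus strand) and F630028O10Rik, which has no partner (chrX:96239676-96239975, plus strand). They are written 5′ to 3′ with CG dinucleotides in capitals.
Kcnq1ot1: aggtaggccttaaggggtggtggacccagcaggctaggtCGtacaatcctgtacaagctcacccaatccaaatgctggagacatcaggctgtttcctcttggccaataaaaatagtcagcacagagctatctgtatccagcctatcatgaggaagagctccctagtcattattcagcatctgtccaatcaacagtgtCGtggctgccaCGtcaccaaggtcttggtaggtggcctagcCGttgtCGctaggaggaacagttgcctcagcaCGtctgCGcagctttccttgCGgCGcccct
Gm15987: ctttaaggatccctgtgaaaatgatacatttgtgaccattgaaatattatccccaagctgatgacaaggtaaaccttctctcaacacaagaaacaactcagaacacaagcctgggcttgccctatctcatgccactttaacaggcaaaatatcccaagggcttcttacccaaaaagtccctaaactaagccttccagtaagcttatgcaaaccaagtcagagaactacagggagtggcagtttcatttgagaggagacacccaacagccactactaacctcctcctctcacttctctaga
0610039K10Rik: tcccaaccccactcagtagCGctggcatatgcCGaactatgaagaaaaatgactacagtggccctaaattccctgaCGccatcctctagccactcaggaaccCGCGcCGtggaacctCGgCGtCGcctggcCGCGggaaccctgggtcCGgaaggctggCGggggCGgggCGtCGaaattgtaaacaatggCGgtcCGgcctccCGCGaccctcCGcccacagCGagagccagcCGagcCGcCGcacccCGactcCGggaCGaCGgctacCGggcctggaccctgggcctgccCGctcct
F630028O10Rik: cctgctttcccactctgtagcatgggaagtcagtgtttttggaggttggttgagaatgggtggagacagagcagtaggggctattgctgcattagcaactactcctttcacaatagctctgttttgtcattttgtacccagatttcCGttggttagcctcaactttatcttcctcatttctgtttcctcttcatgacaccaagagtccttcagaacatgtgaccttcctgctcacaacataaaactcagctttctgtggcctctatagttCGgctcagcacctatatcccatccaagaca
The window of 0610039K10Rik holds 31 CG dinucleotides, that of Kcnq1ot1 9, that of F630028O10Rik 2 and that of Gm15987 0.

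Over the loci in opposite introns, the median window held 6 CG dinucleotides and 51.7% G and C (n = 101 windows). The median was 30 and 68.3% for loci wholly outside opposite genes (n = 13) and 17 and 62% for head-to-head loci (n = 35). All 32817 promoters of the table had a median of 7 and 52.7%. The TATA box core TATAAA, searched on both strands, was in 9.73% of the 185 windows and in 13.6% of all promoters. The CCAAT box was in 33.5% and 37.4%, the GATA site AGATAA in 7.03% and 11.2%, the ETS core GAGGAAG in 13.5% and 13.6%, and the core of the interferon-stimulated response element in 4.86% and 3.43%. These are letter matches in short windows and show no binding.

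F630028O10Rik (chrX:96239926-96243636) contains, on its own strand, the hairpin of miR-223, a microRNA abundant in granulocytes and platelets. Both mature arms lie inside the locus, and their seeds (bases 2 to 8) are in capitals.
mmu-miR-223-3p: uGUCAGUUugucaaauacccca
mmu-miR-223-5p: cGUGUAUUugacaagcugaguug
The counts are of the long locus and do not measure the mature arms.

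The libraries held 6.03 M to 11.99 M gene counts. The 448 loci took 0.0697% to 0.253% of them, 5922 to 25012 counts per library, with a median of 0.209% in TBT and 0.156% in vehicle. After scaling by the trimmed mean of M values (TMM), their summed level had a median of 1703 CPM (counts per scaled library size) in TBT, with a range of 1583 to 1802, and of 1534 in vehicle, with a range of 1474 to 1679, so the groups overlapped. TBT 2 and TBT 8 stood apart, with the lowest TMM factors, 0.404 and 0.528, and in vehicle 6 a single small RNA, Gm23935, accounted for 13.98% of all counts. Levels below are CPM on this TMM scale. All 10 platelet markers and all 9 erythroid markers in the table were read in every library, and 2 of 10 hepatocyte markers were. The summed platelet markers ran from 2878 to 17278 CPM in TBT, where the 2 highest were TBT 2 and TBT 8, and from 3054 to 8336 CPM in vehicle. The summed hepatocyte markers ran from 2.85 to 561 CPM in TBT and from 5.46 to 912 CPM in vehicle. In bulk blood, fewer cells of a type and less RNA per cell cannot be told apart.

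The deposited counts do not separate the strands where exons overlap. Every antisense entry whose exon bases all lay within exons of opposite-strand genes had 0 counts in all 15 libraries (76 of 76). Entries that shared no exon base were at 0 in 11.7% (143 of 1220), and those with exons of up to 1000 bases in 15.2% (117 of 768). The share at 0 was 6.44% with sharing of up to 25%, 21.5% from 50% to 75%, and 45.0% from 75% to under 100%. Over all biotypes, 498 of 498 such wholly shared genes were at 0, among them 37 of 37 protein-coding genes. Pdcd2 (chr17:15519208-15527301), a protein-coding gene, had 0 counts while Tbp opposite to it, the TATA-binding protein, had 3902. Icam4 (chr9:21029373-21030595), a red-cell adhesion molecule, had 0 while Gm47079 opposite to it had 40. With counting by strand, reads over such exons would have been assigned to one of the genes. The counts of the 448 loci therefore come from exon bases not shared with exons of opposite genes, and in opposite introns RNA of the antisense locus and unspliced RNA of the sense gene cannot be told apart. The label antisense describes where a locus is annotated and not the strand of the RNA counted.

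**Figure D1:**
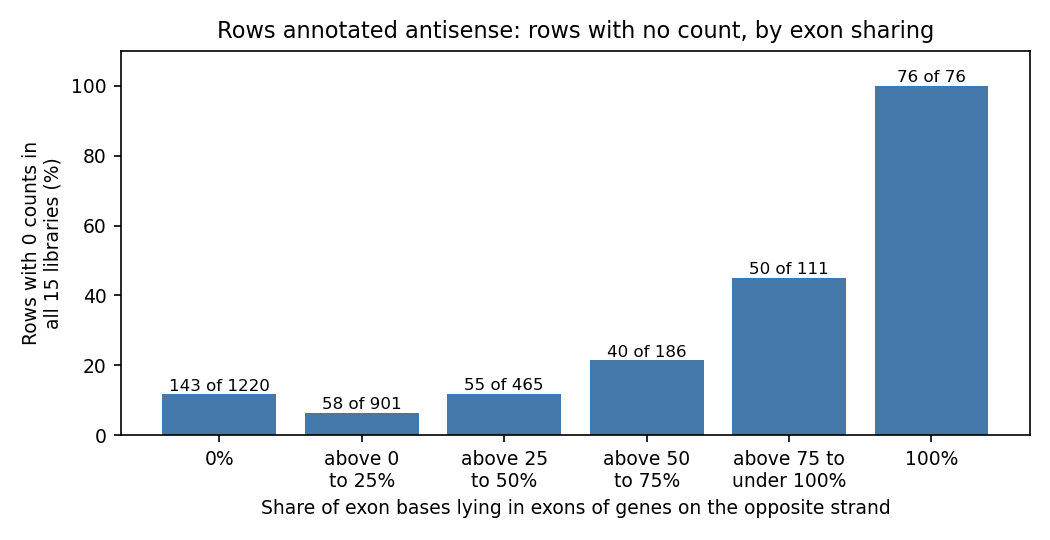
Share of the antisense entries with 0 counts in all 15 libraries (y axis, percent), by the share of their exon bases that lies in exons of genes on the opposite strand (x axis); numbers over the bars give the entries at 0 of all in the bin. All 76 wholly shared entries were at 0, against 143 of 1220 with no shared base.

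In 41 host genes, 46 of the loci could be set beside intronic loci annotated on the host's own strand with at least 200 bases of their own. Their median level was 1.43 CPM per kb of own exon bases, that of the host-strand loci 1.35, and that of the hosts' exons 6.51. The level was within 2-fold of the host-strand loci for 35 of 46 and above it for 32. The antisense loci had to reach the count minimum, while the host-strand loci were kept with any count. This selection favours a higher level in the antisense loci. Across these 46, Spearman's rho was 0.667 with the host-strand loci and 0.516 with the hosts' exons, as a description in which both values come from the same libraries.

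Most of the loci were read at low levels. The median was 1.76 CPM, with a range of 0.672 to 104, and 91 of 448 reached 10 counts in all 15 libraries. At the edge of the selection, the 39 loci with exactly 7 such libraries had a median of 0.920 CPM, and the 38 antisense entries with exactly 6, which were left out, had 0.805. Per kb of own exon bases the median was 1.44 CPM (quartiles 0.816 and 2.67), against 5.20 in the sense partners. The median locus stood at 28.3% of its partner's level per kb, and 70 of 433 stood above it. That share of the partner's level was 28.02% for loci in opposite introns, 26.9% for loci in both positions and 37.2% for loci outside opposite genes.

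**Figure D2:**
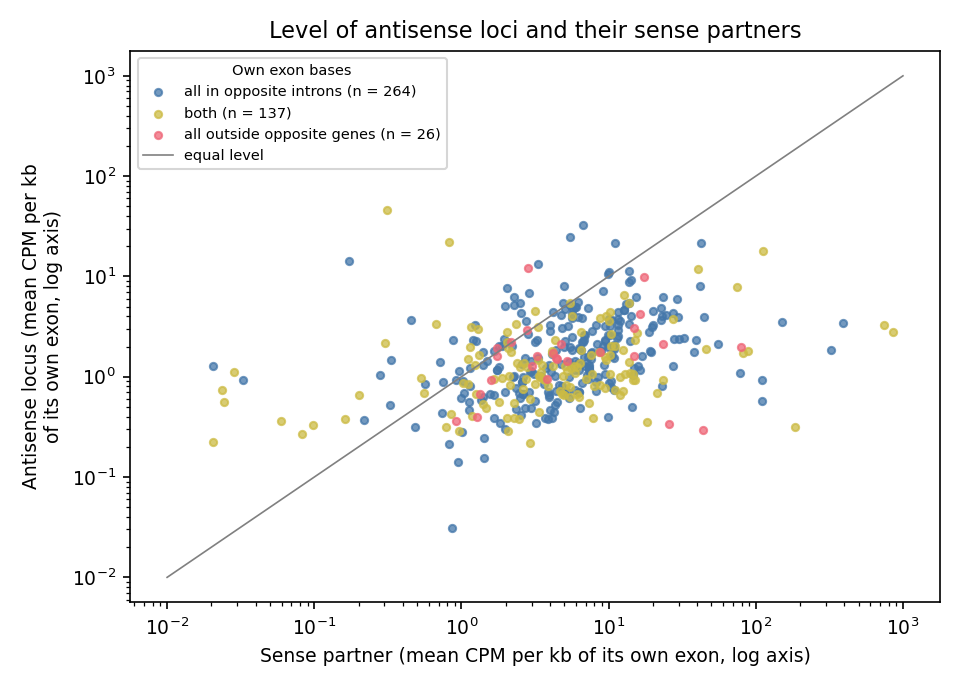
Mean level of each antisense locus (y axis) against its sense partner (x axis), both in CPM per kb of own exon bases on log axes, coloured by where the own exon bases lie. Pairs whose partner was at 0 or had no exon base of its own cannot be placed on the axes. Most points lie below the line of equal level, and 70 of the 433 loci, drawn or not, stood above their partner.

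The highest levels per kb of exon belonged to loci in genes of very different level. Gm10371 (chr14:47097679-47116161), tail to tail with Samd4, an RNA-binding translational repressor, had 45.6 CPM per kb, against 0.312 in Samd4. It ranged from 35.3 CPM to a median of 64.7 and a maximum of 274 in TBT and from 48.4 to 88.6 and 125 in vehicle. Its 2 highest libraries were TBT 2 and TBT 8, the libraries with the highest platelet and erythroid markers, whose part in it was not tested. Gm28609, in introns of Pik3c2b, a phosphoinositide kinase, had 32.4 CPM per kb against 6.74 in its host, and its highest libraries were again TBT 2 (41.8 CPM) and TBT 8 (29.1 CPM). Gm15564 near Parp9 and F630028O10Rik each had 24.5 CPM per kb of exon. The level of Gm15564 was 12.5 CPM per kb without vehicle 6, which alone had 158 CPM, and that of F630028O10Rik was 23.5 without its highest library. Gm27240, in introns of the lymphoid transcription factor Ets1, had 21.3 against 42.8 in Ets1.

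Further loci of high level were Gm44686 at the chromatin remodeller gene Chd2, Gm26740 across Raet1e, whose family encodes ligands of a natural killer cell receptor, Gm15987 in Clec2g, a C-type lectin gene, and Gm20234 at Slfn2, a Schlafen gene of T cell quiescence. They had between 11.8 CPM per kb of exon (Gm20234) and 16.2 (Gm44686). Gm26740 was read at 26.6 ± 5.10 CPM (SD, n = 8) in TBT and 22.2 ± 2.67 (SD, n = 7) in vehicle, while Raet1e was at 0.339 ± 0.224 and 0.224 ± 0.183. In total CPM the highest locus was Tug1, a long noncoding RNA head to head with Morc2a. Tug1 was between 98.2 and 115 CPM in TBT and between 91.5 and 107 in vehicle, and 5 of 8 TBT libraries lay above every vehicle library. The groups overlapped through TBT 1, TBT 3 and TBT 4, and the fitted log2 difference was 0.07 ± 0.0888 (SE).

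F630028O10Rik was read at 66.3, 79.9 and 124 CPM (lowest, median and highest) in TBT and at 53.5, 74.7 and 90.6 in vehicle. The groups overlapped, and TBT 3 stood above the next library at 93.5 CPM. D730005E14Rik, which has no opposite-strand partner and lies on the strand of Apobec3, was at 11.995 ± 2.22 CPM in TBT and 13.96 ± 3.05 in vehicle. Gm15674, head to head with the complement regulator gene Cd55b, was at 26.3 ± 7.81 and 26.8 ± 3.87, and its level per kb of own exon bases was 22.02 CPM against 0.826 in Cd55b. Brip1os, which spans the Integrator gene Ints2, was at 17.2 ± 1.93 and 15.3 ± 3.08. Gm35853, which spans the keratin gene Krt80, was at 8.70 ± 4.24 and 7.72 ± 2.78. The SDs are over 8 TBT and 7 vehicle animals, and in each of these 4 the difference was smaller than the larger SD.

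Between TBT and vehicle, no antisense locus differed past the threshold. Of 448 loci, 416 passed edgeR's filter on low counts. In edgeR's quasi-likelihood test with Benjamini-Hochberg adjustment at 0.05, 0 of 416 were called, and 0 of 13364 genes (percent called 0). The smallest adjusted p over all genes was 0.207. DESeq2 called 19 genes and limma-voom 22, and neither called an antisense locus. At an unadjusted p under 0.05, 39 of 416 loci were counted (9.38%) against 846 of all genes (6.33%). Of the 39, 34 were higher in TBT, where the share over all genes was 4.57%, and 5 were lower, where it was 1.76%. The excess over all genes depended on the fit. It was seen with DESeq2 (11.1% of loci against 7.95% of all genes) and with upper quartile scaling (8.65% against 5.50%). The share was 20.9% against 19.97% with limma-voom, and 13.2% against 17.2% in edgeR without TBT 2, TBT 8 and vehicle 6. With limma-voom 71 of the loci were higher and 16 lower, against 1444 and 1225 of all genes. Without the 3 libraries 45 loci were higher and 10 lower, against 935 and 1352 of all genes. The groups did not overlap at 0 of 448 loci, against 0.0973% of all genes with TBT above vehicle and 0.015% with TBT below.

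The log2 difference was above 0 at 277 of 416 loci (66.6%), against 59.4% of all genes, with a median of 0.13 against 0.05. Position went with it. Among 244 loci wholly in opposite introns, 182 were above 0 with a median of 0.18, and 28 were higher and 2 lower at an unadjusted p under 0.05. Among 133 loci with exon bases in both positions, 76 were above 0 with a median of 0.09. Among 25 loci wholly outside opposite genes, 13 were above 0 with a median of 0.03. Among 14 loci with no partner, 6 were above 0 with a median of -0.13. No test of the difference between these positions was made.

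The 355 tested sense partners had a median of 0.04, and 221 of them were above 0. Loci of some other biotypes had larger medians. Among loci marked TEC, gene models that still await experimental proof, 571 of 669 were above 0 with a median of 0.30, and 166 were higher and 0 lower at an unadjusted p under 0.05. Among sense intronic loci, 75 of 88 were above 0 with a median of 0.30. Among intergenic lincRNA loci, 218 of 327 were above 0 with a median of 0.12, and protein-coding genes had a median of 0.03. Without TBT 2, TBT 8 and vehicle 6, 285 of the 416 loci were above 0 with a median of 0.17, and 180 of the 244 loci in opposite introns with a median of 0.24. The medians of the cell type markers differed between fits. The platelet markers had a median log2 difference of 0.04, the erythroid markers 0.30 and the hepatocyte markers -0.43 over all libraries, with 0 of 10, 0 of 9 and 0 of 8 at an unadjusted p under 0.05. Without the same 3 libraries the platelet markers had a median of -0.81, with 9 of 10 lower at an unadjusted p under 0.05, and the erythroid markers one of -0.48, with 3 of 9 lower. With limma-voom these medians were -0.72 and -0.37. The part of these cell types in the medians of the antisense loci was not tested.

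**Figure D3:**
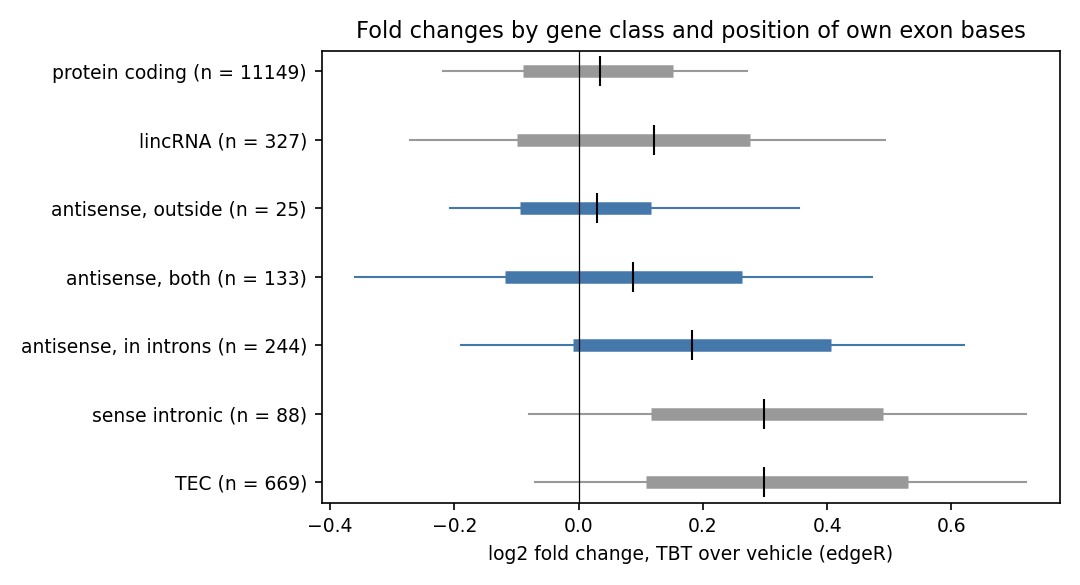
Fitted log2 fold change of TBT over vehicle (x axis) by gene class and, for antisense loci, by the position of their own exon bases; the black mark is the median, the thick bar the quartiles and the thin line the 10th to 90th percentile over the genes. The median was 0.18 for antisense loci in introns, 0.03 for those outside opposite genes and 0.30 for TEC loci.

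Loci higher in TBT with the smallest p-values are described first. Most of them lay in opposite introns, as did 244 of all 416 loci tested. Gm20407 (chr19:27994197-27995693), in an intron of Rfx3, a transcription factor of ciliated cells, was read at 0.865, 1.90 and 2.63 CPM (lowest, median and highest) in TBT and at 0.266, 0.554 and 1.41 in vehicle. The groups overlapped, with vehicle 1 above 3 of the TBT libraries and all 8 TBT libraries above the vehicle median. The highest value of Gm20407 was in TBT 2, the library with the lowest TMM factor. Gm20407 reached 10 counts in 8 of the 15 libraries, and AC165960.2 and Gm28940, named below, in 9. The selection asked for 7, so loci this near the minimum may have entered mainly through the group where they are higher. The log2 difference was 1.39 ± 0.350 (SE; edgeR adjusted p = 0.542). Rfx3 itself had a log2 difference of 0.11.

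4930549C15Rik (chr12:26346717-26371748), in introns of Rnf144a, an E3 ubiquitin ligase, was read at 1.99, 3.58 and 4.96 CPM in TBT and at 1.596, 1.98 and 2.22 in vehicle. All 8 TBT libraries were above the vehicle median, and the groups overlapped at the lower end of TBT. The log2 difference was 0.79 ± 0.210 (SE; edgeR adjusted p = 0.557), against -0.10 in Rnf144a. 2010007H06Rik (chr9:51278513-51284210), head to head with Colca2 and otherwise outside it, was read at 9.45, 12.7 and 16.1 CPM in TBT and at 6.39, 8.36 and 12.4 in vehicle. Again all 8 TBT libraries were above the vehicle median, with overlap from vehicle 1. The log2 difference was 0.54 ± 0.146 (SE; edgeR adjusted p = 0.579), and that of Colca2 was 0.40.

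Kcnq1ot1 (chr7:143203458-143296549), a single exon of 93092 bases in the potassium channel gene Kcnq1, was read at 75.05, 92.3 and 124 CPM in TBT and at 61.2, 75.7 and 88.9 in vehicle. The mean was 96.7 ± 15.4 CPM (SD, n = 8) in TBT and 74.2 ± 9.73 (SD, n = 7) in vehicle, with 7 of 8 TBT libraries above the vehicle median. The log2 difference was 0.38 ± 0.120 (SE; edgeR adjusted p = 0.676). Kcnq1 exons were almost silent, at 0.0596 ± 0.0739 CPM in TBT and 0.210 ± 0.375 in vehicle, and did not pass the filter. Per kb of own exon bases, Kcnq1ot1 was at 0.937 CPM and Kcnq1 at 0.0327.

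Gm15987 (chr6:128951204-128975029), in introns of Clec2g, was read at 26.0, 32.4 and 38.6 CPM in TBT and at 17.9, 23.6 and 33.0 in vehicle, and its log2 difference of 0.39 stood beside one of 0.37 in Clec2g. The groups overlapped, with all 8 TBT libraries above the vehicle median. Gm15478 in the phospholipid flippase gene Atp8a1 had a log2 difference of 0.72, Gm32401 at the adhesion scaffold gene Nedd9 0.59, and AC165960.2 in the endosomal GTPase gene Rab5a 1.04. Their partners had 0.19, -0.08 and 0.15. Adjusted p-values of these loci in edgeR lay between 0.676 (Gm15987) and 0.703 (AC165960.2).

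Loci lower in TBT were fewer. Gm15564 (chr16:35966752-35983230), tail to tail with Parp9, an interferon-induced ADP-ribosyltransferase, had 2.09, 9.12 and 20.4 CPM in TBT and 4.52, 9.58 and 158 in vehicle. The locus overlaps Parp9 over 5854 bases and runs beyond it. All its own exon bases lie in introns of opposite genes, so Parp9 is not the only gene opposite to it. The medians were close, and the vehicle library next to vehicle 6 had 22.8 CPM. Its log2 difference was -1.76 ± 0.794 (SE; edgeR adjusted p = 0.773), and -0.21 without vehicle 6. Gm15893, in introns of the RNA-binding protein gene Msi2, had 0.854, 1.43 and 2.47 CPM in TBT and 1.42, 2.08 and 3.76 in vehicle, with 1 of 8 TBT libraries above the vehicle median. Its log2 difference was -0.60, against 0.08 in Msi2.

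0610039K10Rik, whose start faces that of the membrane protein gene Serinc3, was read at 0.579, 2.26 and 3.42 CPM in TBT and at 2.65, 3.28 and 3.86 in vehicle. TBT 2 and TBT 8 were the 2 lowest libraries, and 1 TBT library was above the vehicle median. The log2 difference was -0.54, against 0.21 in Serinc3, and -0.32 without TBT 2, TBT 8 and vehicle 6. Gm27003, head to head with Gabpb1, a subunit of an ETS transcription factor complex, had a log2 difference of -0.72, and 4930426D05Rik at Klhl14 one of -0.56. Gm26852 at the DNA repair helicase gene Ercc2 had -0.61, Gm30881 at Dop1b -0.69 and Gm17112 at the G protein gene Gnb2 -0.57. Adjusted p-values of the loci named as lower lay between 0.731 (4930426D05Rik) and 0.803 (Gm17112) in edgeR. The value of Gm30881 was -0.28 with limma-voom and -0.45 without TBT 2, TBT 8 and vehicle 6.

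**Figure D4:**
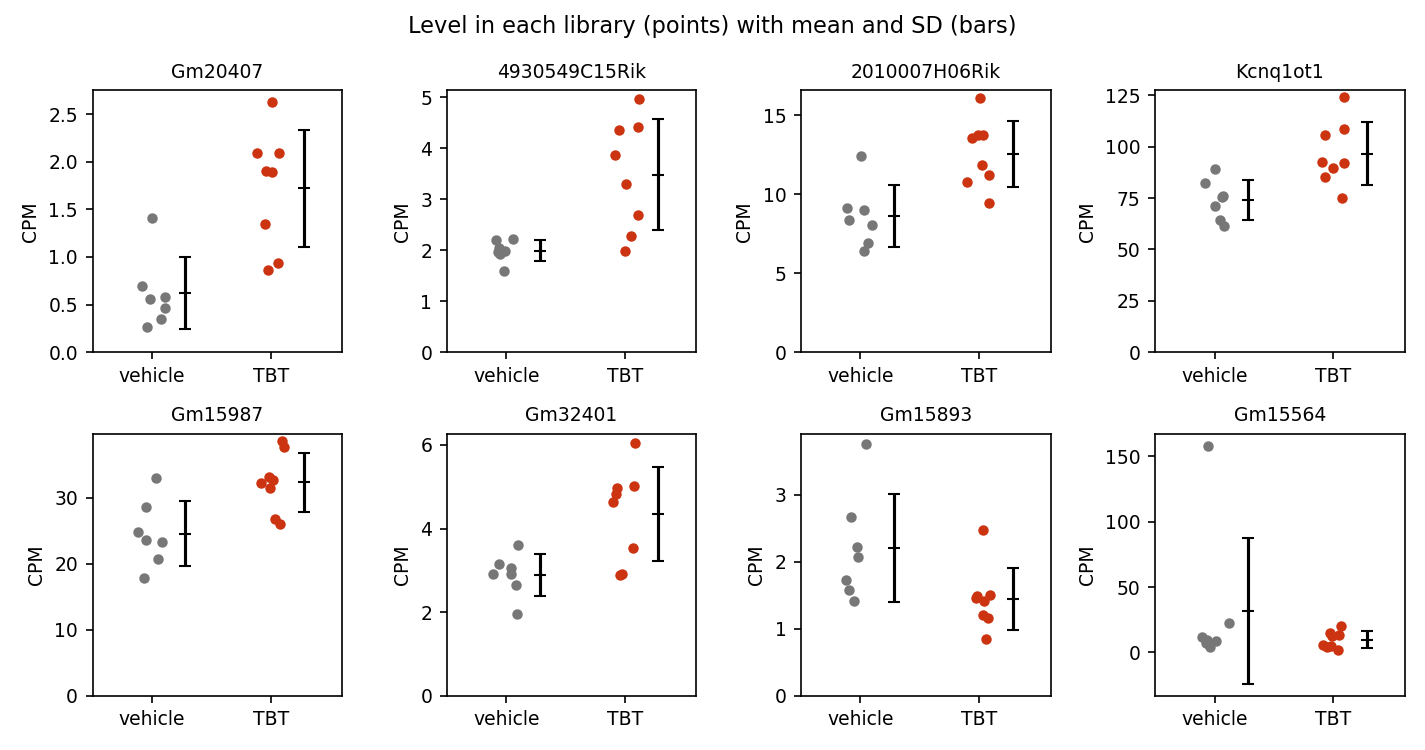
Level in CPM (y axis) in each vehicle and TBT library (points), with the mean and SD of 7 and 8 animals (bars). Shown are 8 loci chosen from those with the smallest p-values in each direction, with Gm15893 and Gm15564 from the lower direction. The groups overlapped at every locus shown, and at Gm15564 the vehicle mean rests on vehicle 6 at 158 CPM.

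Airn (chr17:12741311-12860136), the imprinted transcript that starts inside the receptor gene Igf2r, was read at 1.14, 1.33 and 3.86 CPM in TBT and at 0, 1.15 and 1.596 in vehicle. The groups overlapped, and TBT 8 was the highest library. Its log2 difference was 0.64 ± 0.390 (SE; edgeR adjusted p = 0.866), against 0.09 in Igf2r. It was 0.40 without TBT 8 and 0.34 without TBT 2, TBT 8 and vehicle 6. Zeb2os, opposite the transcription factor gene Zeb2, was at 5.32 ± 3.07 CPM (SD, n = 8) in TBT and 5.68 ± 2.86 (SD, n = 7) in vehicle, with its highest values in vehicle 7 (11.6 CPM) and TBT 2 (11.1 CPM).

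Dleu2, a known antisense RNA that carries another biotype in the table, had a log2 difference of 0.34. Over a list of 6 known antisense RNAs that were tested, 4 were above 0, with 2 higher and 0 lower at an unadjusted p under 0.05. Genes of RNA decay and of double-stranded RNA sensing were described as lists beside the loci. Of 20 genes of the nuclear exosome and its adaptors, 13 were above 0 and 0 had an unadjusted p under 0.05, with a median log2 difference of 0.07. Of 14 genes of the Integrator complex, which ends transcription of short and unstable RNAs, 8 were above 0, and 1 (Ints2, 0.29) had an unadjusted p under 0.05.

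Of 19 genes that sense or edit double-stranded RNA, 14 were above 0 with a median of 0.33, and 6 were higher and 0 lower at an unadjusted p under 0.05. The median was 0.16 with limma-voom and 0.14 without TBT 2, TBT 8 and vehicle 6. Among the 6 were the endosomal receptor Tlr3 (0.71), the kinase Eif2ak2 (0.44) and the 2-5A synthetase family member Oasl2 (0.79). No gene of these lists passed the adjusted threshold. The smallest adjusted p among them in edgeR was that of Tlr3, 0.684, apart from Kcnq1ot1.

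The balance of an antisense locus and its partner was then compared as the difference of their log2 CPM in each animal. For 373 pairs both genes were tested, with 355 distinct partners. A two-sided exact permutation test was run that used every split of the animals. After Benjamini-Hochberg adjustment 0 of 373 pairs were called (percent called 0), and the smallest adjusted p was 0.612. The splits allow p-values down to 0.000155. At an unadjusted p under 0.05 there were 18 pairs (4.83%), 15 with a higher ratio in TBT and 3 with a lower ratio. The ratio was higher in TBT in 232 of 373 pairs, with a median difference of 0.09. With the locus in opposite introns it was higher in 156 of 229 pairs, with a median of 0.136. With bases in both positions it was higher in 64 of 121 (0.0129), and outside opposite genes in 12 of 23 (0.0450). Of the 18 pairs, 13, 4 and 1 were in these positions. In opposite introns the counts can include unspliced RNA of the sense gene, so the ratio there is not a balance of strands.

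The pair with the smallest p was 4930549C15Rik and Rnf144a. The log2 ratio was -3.73 ± 0.54 (SD, n = 8) in TBT and -4.56 ± 0.23 (SD, n = 7) in vehicle, a difference of 0.82 (exact permutation p = 0.00186). For Gm20407 and Rfx3 the difference was 1.18, and for Gm27003 and Gabpb1 it was -1.03. Gm28940 and Rhbdd1, a rhomboid protease gene, differed by 0.61, Gm36756 and the signalling scaffold gene Ccdc88c by 0.60, and Gm32401 and Nedd9 by 0.64. Exact permutation p-values of these lay between 0.00451 and 0.0117 before adjustment, and 0.612 after it in each.

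Across animals, few antisense loci followed their partner closely. Correlations of log2 CPM were taken over 13 animals, without TBT 2 and TBT 8. The median Pearson r over 373 pairs was 0.17, and 13 pairs (3.49%) were called at an adjusted permutation p under 0.05, all with positive r. The count was 4 with values centred on the group mean, 34 over all 15 animals and 7 without TBT 3. Of the 13, 5 were also called by Spearman's rho. The lowest r among the called pairs was 0.763, and without the 2 animals farthest from the median of the sense gene the lowest was 0.605. By position, 7 of 229 pairs with the locus in opposite introns were called, 5 of 121 with bases in both positions, and 1 of 23 outside.

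Gm20234 and Slfn2 had the highest r, 0.911 (permutation p = 1e-05, the smallest the resamples can give, adjusted p = 0.00373), with rho 0.879 (permutation p = 0.00015, adjusted p = 0.0186). Without the 2 farthest animals r was 0.868, within TBT 0.969 and within vehicle 0.872. Gm26789 lies in introns of Herc4, an E3 ubiquitin ligase, and had r = 0.910 (permutation p = 2e-05, adjusted p = 0.00373) and rho 0.940 (permutation p = 2e-05, adjusted p = 0.00559), with 0.861 without the farthest animals, 0.847 within TBT and 0.825 within vehicle. Their levels per kb were 29.0% and 36.5% of the partner's.

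Gm37035, head to head with P2ry1, the ADP receptor of platelets, had r = 0.892 (permutation p = 0.00016, adjusted p = 0.0164) and rho 0.940 (permutation p = 3e-05, adjusted p = 0.00559). It was 0.749 within TBT and 0.869 within vehicle. 6330403L08Rik, head to head with the platelet growth factor gene Pdgfa, had r = 0.868 (adjusted permutation p = 0.0168) and rho 0.769 (adjusted permutation p = 0.0739), but -0.146 within TBT and 0.935 within vehicle. In both, TBT 2 and TBT 8, which were not in the correlation, were the 2 highest libraries, at 4.38 and 7.52 CPM for Gm37035 and 6.72 and 11.4 CPM for 6330403L08Rik. The platelet markers were also highest in these libraries, and their part in the correlation was not tested. 1700071M16Rik, inside Pla2g7, the gene of the plasma platelet-activating factor acetylhydrolase, had r = 0.861 (adjusted permutation p = 0.0164) and rho 0.786 (adjusted permutation p = 0.0724).

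**Figure D5:**
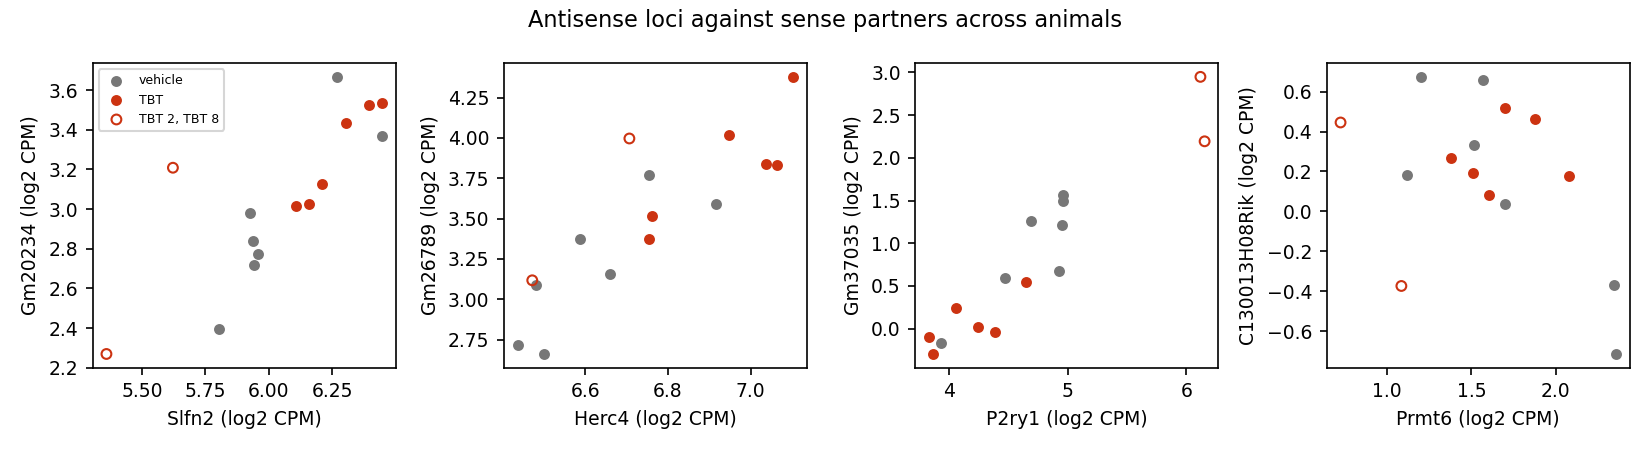
Level of an antisense locus (y axis, log2 CPM) against its sense partner (x axis, log2 CPM) in each animal, grey for vehicle and red for TBT, for the 3 pairs with the highest r and the pair with the lowest; open circles are TBT 2 and TBT 8, which were not in the correlation. Pearson's r over the 13 filled points was 0.911, 0.910, 0.892 and -0.688.

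No pair with a negative r was called. The lowest was C130013H08Rik and Prmt6, an arginine methyltransferase gene, with r = -0.688 (permutation p = 0.00963, adjusted p = 0.132), rho -0.511 and -0.161 without the 2 farthest animals, so it rests on those animals. It was 0.155 within TBT and -0.838 within vehicle. Gm26982 and the ghrelin gene Ghrl had r = -0.653 (adjusted permutation p = 0.154), and Gm49085 and the ribonucleotide reductase gene Rrm2b had r = -0.565 (adjusted permutation p = 0.293) and 0.077 without the 2 farthest animals, or -0.34 without vehicle 5.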

How the data were processed

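Libraries were made with the TruSeq Stranded Total RNA protocol from RNeasy-purified, DNase-treated blood RNA, per the labels. Reads went through Trim Galore, HISAT2 (mm10) and featureCounts, per the submitters' processing notes. The handling of strand, like tool versions and the annotation, is not given in the sources used here. Raw counts per gene were deposited, with no normalization by the authors, and were used as they are. The lowest chi-square per gene between libraries of a group was 11.1, so each library was kept as 1 animal.

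Genes were filtered with filterByExpr (13364 kept) and compared with edgeR 4.0.16 in R 4.3.3 (TMM, robust glmQLFit, glmQLFTest). DESeq2 1.42.0 and voom with quality weights in limma 3.58.1 were alternatives. The common biological coefficient of variation was 0.290. Tested on simulated counts for this comparison over 13364 genes, the test called 57 of 100 genes changed by 1 on the log2 scale and 9 of 100 changed by 0.5. The changed genes were drawn from genes of every biotype with a mean above 1 CPM. The median of the antisense loci was 1.76 CPM, and these shares were not taken for such loci alone. Ratios and correlations used log2 CPM with a prior count of 2, and correlations 100000 resamples (SciPy 1.17.1). Leave-one-out ratios and correlations kept the scaling of all 15 libraries. Standard errors of log2 differences came from the quasi-likelihood F statistic.

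A partner was the opposite-strand gene with overlapping body, protein-coding genes first, then the longest overlap. Loci were named by rule: the 10 highest per kb of exon, the 8 smallest p in each direction, the 6 smallest ratio p, the 5 highest and 3 lowest r, known antisense RNAs, and the 2 highest of each overlap class. Of these, 1 locus named by the rule is not reported here. The loci, lists and rules were chosen with earlier results of these data known. The classes by position of own exon bases, the count of wholly shared genes with Pdcd2 and Icam4, the host-strand comparison, the levels without a locus's highest library, the promoters shown and the pairs plotted were chosen after values had been seen.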

Additional observations from a re-analysis of the deposited data

Results flagged for a closer look

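Among the 40 named loci, each group of 8 or 7 libraries was searched for a single library far from the rest. Such a library was found in 8 of 80 groups. The chance rate of about 1 in 20 groups is for values that were not selected. These loci were named on the same values and share the same 15 libraries, so the count cannot be read against that rate. In TBT, Airn was at 3.86 CPM in TBT 8 (next library 1.99), Gm15478 at 6.37 CPM in TBT 8 (next 3.72), F630028O10Rik at 124 CPM in TBT 3 (next 93.5) and Gm15893 at 2.47 CPM in TBT 7 (next 1.503). In vehicle, Gm15564 was at 158 CPM in vehicle 6 (next 22.8), the library with the high Gm23935 share. Brip1os was at 21.95 CPM in vehicle 2 (next 15.2), Gm20407 at 1.41 CPM in vehicle 1 (next 0.694) and Zeb2os at 11.6 CPM in vehicle 7 (next 6.65).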

How the results depend on the processing

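No antisense locus and no ratio was called under any alternative run (for loci, other scalings and tools, no filter on low counts, haemoglobin genes left out and the replicate block; for ratios, another prior count; for both, each library and 3 libraries left out). For ratios the replicate block allows no p below 0.0156, too large for a call over 373 pairs unless very many reached it, so it says nothing about them. Over all genes, the count of calls, 0 in edgeR, was 19 with DESeq2, 22 with limma-voom, 2 with no filter, 1 with the replicate block and 7 without TBT 2, TBT 8 and vehicle 6. The 39 loci at an unadjusted p under 0.05 became 46 with DESeq2 (11.1%, against 7.95% of all genes) and 87 with limma-voom (20.9%, against 19.97% of all genes). They became 55 of the 416 loci without TBT 2, TBT 8 and vehicle 6 (13.2% against 17.2%), and 27 to 48 with 1 library left out. The 13 called correlations became 34 over all 15 animals, 4 with values centred on the group mean, and 7 (without TBT 3) to 17 (without vehicle 7) with 1 animal left out. The r of Gm26982 was 0.00219 over all 15 animals. The log2 difference of Zeb2os was 0.10 without vehicle 7 and as low as -0.37 with another library left out. The replicate numbers were not used as pairs in the main fit. Same-numbered animals correlated between -0.235 (replicate 4) and 0.506 (replicate 3) in their deviations. Of all the animals, 3 correlated best with their own number, and 2 of these were of replicate 3. Such correlations cannot show whether same-numbered animals were handled together. Depth limits the loci of about 1 CPM, which rest on about 10 counts per library.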
